A study of Mus musculus with 5 samples.

Results

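The genes described here encode the proteins of the cytosolic ribosome, measured by RNA sequencing of the dentate gyrus (DG) in 5 groups of mice. They were chosen by symbol alone: every gene whose symbol starts with Rpl (large subunit) or Rps (small subunit) followed by a number, together with Rpsa, Rplp0, Rplp1 and Rplp2, but without pseudogene symbols and without the Rps6k kinases. This gave 86 of the 23420 gene symbols in the files, 52 of the large and 34 of the small subunit. Of these, 77 are core ribosomal proteins and 9 are paralogs or other symbols that the rule takes in, namely Rpl3l, Rpl7l1, Rpl10l, Rpl22l1, Rpl36al, Rpl39l, Rps27l, Rps4y2 and Rps19bp1. The symbol Rps19bp1 names a nucleolar protein that binds Rps19, and no subunit of the ribosome.

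All mice were wild-type CD1, an outbred strain, male by the study's methods, and they lived for 4 weeks in their housing. LD mice were kept singly with a locked disk. CE mice lived in social groups in a complex environment with a locked disk and tunnels. RUN mice were kept singly with a disk on which they could run, and L-RUN and H-RUN were the RUN mice with the shortest and the longest running distances. Age is 4 months in the labels and 3 months in the methods. Each group is 1 library of pooled polyA RNA, from 8 mice each in LD, CE and RUN and from 4 mice each in L-RUN and H-RUN. The RUN pool held the same mice as the L-RUN and H-RUN pools together.

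A ribosome joins messenger RNA to amino acids. The small subunit binds and decodes the mRNA, the large subunit forms the peptide bond and leads the growing chain out through a tunnel, and the stalk of P proteins on the large subunit recruits the translation factors that hydrolyse GTP. The genes of its proteins are expressed in every cell and at high level, and in neurons their mRNAs are found in the cell body and in processes. Most of their mRNAs start with a C in a run of C and T bases, the terminal oligopyrimidine (TOP) motif, through which mTOR and the protein Larp1 control how often they are translated. The values here are levels of mRNA, and carry nothing on translation.

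Values are regularized log values, the log2-scale expression estimates that DESeq2 makes from counts, in which differences of genes with few counts are shrunk towards 0. A fold change read from them can therefore understate the true fold. With 1 library per group there is no spread between mice, no difference could be tested, and no p-value is given. A gene counted as over the filter when the mean of its 5 values was at least 5. This held for 82 of the 86 ribosomal protein genes and for 13550 of all genes. The 4 under the filter were Rpl26 with a mean of 4.34, Rpl3l with 2.56, Rpl39l with -2.23 and Rpl10l, which was listed at 0 in all 5 libraries, as were 4588 symbols in all. Just inside the filter were Rpl34 with a mean of 5.53 and Rps27 with 5.54.

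Library noise could be read from the RUN pool, since its value should equal the log2 of the mean of the L-RUN and H-RUN values on the linear scale. For the 82 ribosomal protein genes, the residual of RUN against that mean had a median of 0.0084 and ranged from -0.073 to 0.075. From these residuals, by the median absolute deviation, the technical SD of a difference between a pair of libraries came to 0.034 (log2) for the ribosomal protein genes and 0.036 for all genes over the filter. A difference of 0.3, the cut-off of the study's methods, is thus 8.89 technical SDs, and a smaller cut-off of 0.1, used here for an abundant family with small differences, is 2.96. This SD covers gene-to-gene scatter from pooling, library preparation and sequencing. It holds no variation between mice, and none from dissection or RNA extraction, since the pools used RNA of the same mice. A shift shared by the whole family in a library is also not part of it. The RUN value fell inside the interval from H-RUN to L-RUN for 64 of the 82 genes (78.0%, against 58.3% of all genes).

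The libraries themselves were not alike. All 8 granule neuron markers of a list, Prox1 and C1ql2 among them, were over the filter in what the labels call dentate gyrus. Of 20 markers of leptomeningeal fibroblasts, the cells of the membranes around the brain, 18 were over the filter (Foxc2 and Foxd1 were below it). All 18 were higher in L-RUN than in LD and in H-RUN, 14 of them by at least 0.3 against LD. The list was chosen with earlier results of these data known, so this count is no independent finding. Their summed level was 13.06 in LD, 12.94 in H-RUN, 13.28 in CE, 13.83 in RUN and 14.33 in L-RUN (log2). The summed level of 9 markers of pyramidal neurons of the neighbouring hippocampal fields went the other way, with 13.54, 13.52, 13.52, 13.41 and 13.23 in the same order. The part of these markers in the results below was not tested, and in bulk RNA fewer cells of a type and less RNA per cell cannot be told apart.

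L-RUN was the library in which ribosomal protein genes were highest. It held the highest of the 5 values for 61 of the 82 genes (74.4%, against 24.1% of all genes) and the lowest for 0. LD held the lowest value for 43 of them (52.4%, against 25.8% of all genes), and these 43 were higher than LD in all 4 other libraries. Added up over the 82 genes, the level was 18.85 in LD, 18.86 in H-RUN, 18.87 in CE, 18.92 in RUN and 18.96 in L-RUN (log2). The differences were small: the range over the 5 libraries reached 0.3 for 2 ribosomal protein genes (2.44%), and for 5.12% of all genes.

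**Figure D1:**
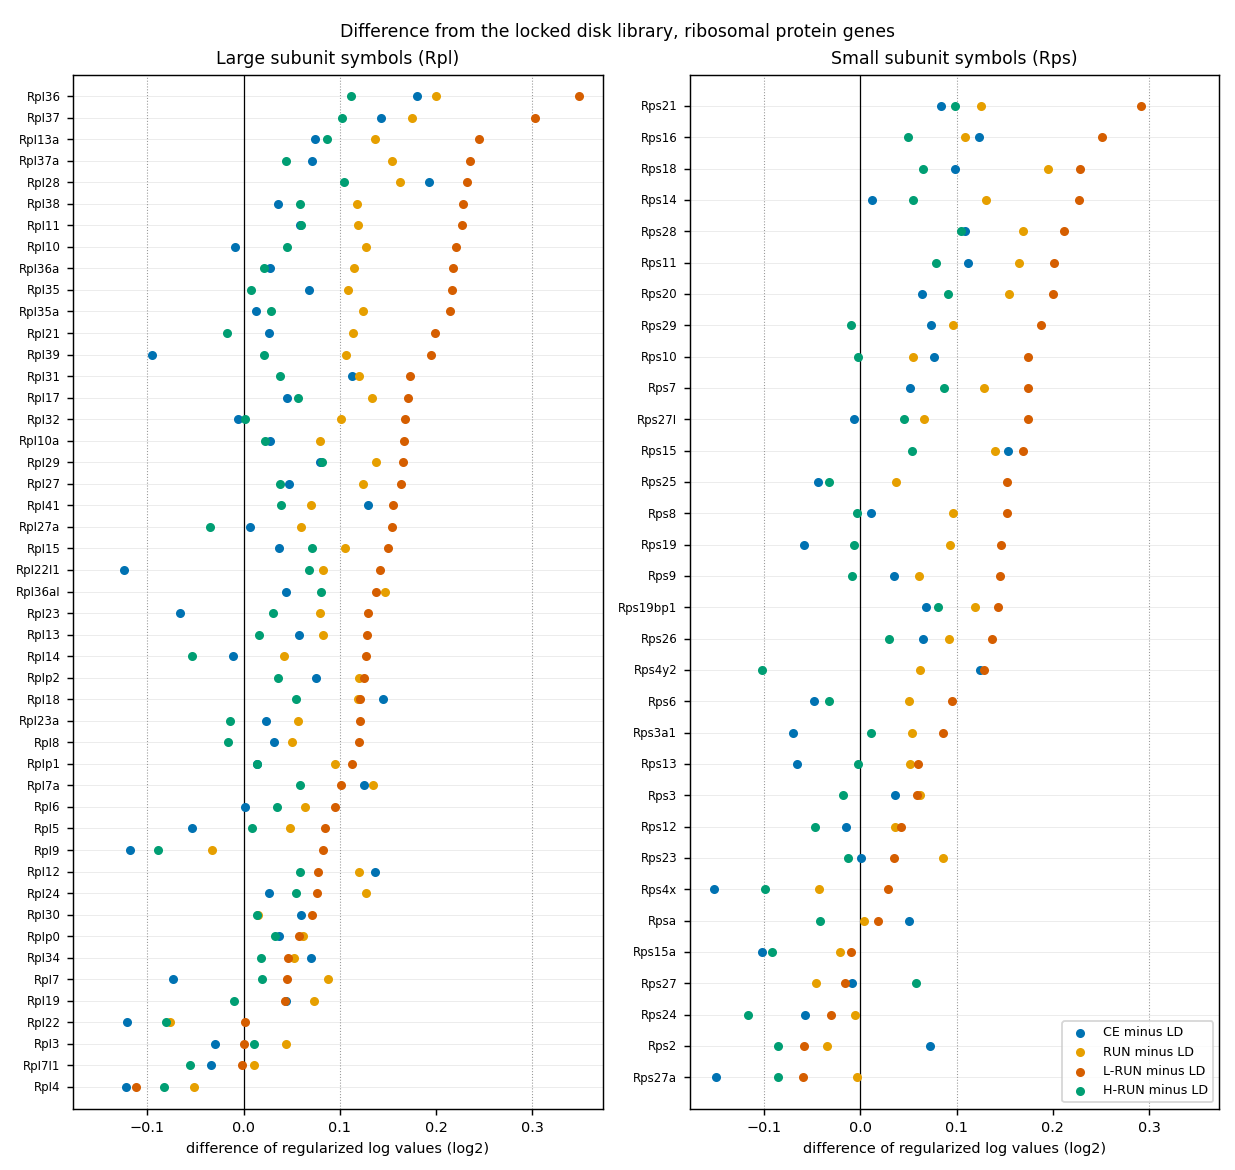
Differences of regularized log values (log2, horizontal axis) from LD for ribosomal protein genes over the filter, with large subunit symbols on the left and small subunit symbols on the right, sorted by L-RUN minus LD. Each point is 1 gene in 1 comparison, without replicates, and dotted lines mark -0.1, 0.1 and 0.3; the L-RUN points reach 0.35 for Rpl36, the highest, while the H-RUN points stay between -0.12 and 0.11.

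In the comparison of L-RUN with LD, 75 of the 82 genes were higher and 7 were lower, with a median difference of 0.14 (quartiles 0.072 and 0.20, log2), a fold of 1.104. The median of all genes was -0.0018, and 6676 of the 13550 were higher. Of 623 other genes with principal transcripts of at most 1000 nt, 552 were higher. A difference of 0.3 or more was reached by 2 genes, Rpl36 and Rpl37, while 3.13% of all genes passed that cut-off, so at 0.3 the family did not stand out. At 0.1 it stood apart from all genes, but much less from other short genes. By at least 0.1, 54 genes were higher (65.9%), against 16.3% of all genes and 54.1% of the 623 other short genes. The share was 66.2% in the 77 nuclear genes of oxidative phosphorylation described below. Only 1 ribosomal protein gene was lower by that much (1.22%, against 20.5% of all genes and 1.93% of the other short genes). The 48 large subunit genes had a median of 0.14 and the 34 small subunit genes a median of 0.14. After removal of the trend with transcript length, 21 of the 82 genes were higher by at least 0.1 (25.6%, against 14.2% of all genes) and 4 lower (4.88%, against 14.4%).

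Rpl36 (chr17:56613416-56614243, GRCm38), a small protein of the large subunit, stood, as regularized log values, at 11.11 in LD, 11.23 in H-RUN, 11.30 in CE, 11.32 in RUN and 11.46 in L-RUN. L-RUN was the highest and LD the lowest, and L-RUN minus LD was 0.35, a fold of 1.27. Rpl37 (chr15:5116645-5119140), a zinc-binding protein of the large subunit, had 11.996 in LD, 12.10 in H-RUN, 12.14 in CE, 12.17 in RUN and 12.30 in L-RUN. The order of the libraries was that of Rpl36, and L-RUN minus LD was 0.30.

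In the small subunit Rps21 (chr2:180257377-180258445) led, with 11.97 in LD, 12.07 in H-RUN, 12.05 in CE, 12.10 in RUN and 12.26 in L-RUN, a difference of 0.29 in L-RUN. Rps16, whose tail reaches towards the decoding centre, had 12.18, 12.23, 12.30, 12.29 and 12.43 in the same order, a difference of 0.25. Rpl13a, known also for its part in silencing inflammatory mRNAs outside the ribosome, had 13.16, 13.24, 13.23, 13.29 and 13.40, a difference of 0.24. For all 5 of these genes LD was the lowest library and L-RUN the highest.

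Rpl4 (chr9:64173375-64178666), whose loop lines the exit tunnel, was the exception. Its value was 14.04 in LD, 13.95 in H-RUN, 13.91 in CE, 13.98 in RUN and 13.92 in L-RUN, so LD was the highest of the 5 libraries. L-RUN minus LD was -0.11, the lowest of the 82 genes. Rps27a, made as a fusion of ubiquitin and a small subunit protein, had 12.47, 12.38, 12.32, 12.46 and 12.41 in the same order, and L-RUN minus LD was -0.060. Rps2 had 13.83, 13.75, 13.90, 13.80 and 13.77, with CE highest, and a difference of -0.059 in L-RUN. Next came Rps24 at -0.031 and Rps27 at -0.016, both under 1 technical SD of 0.034.

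Rpsa, which is both a small subunit protein and known as a laminin receptor, differed by 0.018 in L-RUN, within the technical SD. The P stalk proteins were all higher in L-RUN than in LD, by less than the family median of 0.14. L-RUN minus LD was 0.058 for Rplp0, the base of the stalk, 0.11 for Rplp1 and 0.13 for Rplp2. Rps6, the small subunit protein that S6 kinases phosphorylate downstream of mTOR, had 13.11 in LD, 13.07 in H-RUN, 13.06 in CE, 13.16 in RUN and 13.20 in L-RUN. It was higher than LD by 0.095 in L-RUN and by 0.051 in RUN, and lower by values of -0.048 in CE and -0.033 in H-RUN.

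The start sites of a few genes are shown because the TOP motif is the sequence that the family shares. RefSeq promoters were matched for 61 of the 82 genes, with 72 promoters between them. Each line gives the 15 bases before and the 15 bases from the annotated RefSeq start (GRCm38.p6), on the strand of the gene and 5′ to 3′, with the longest run of C and T in capitals. Rpl37 passed 0.3 and Rpl4 was the lowest gene in L-RUN, while the others are pairs of a parent gene and its paralog.
Rpl37, chr15:5116598-5116627, plus strand: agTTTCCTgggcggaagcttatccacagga
Rpl4, chr9:64173372-64173401, plus strand: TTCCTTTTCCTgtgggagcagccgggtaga
Rps27, chr3:90213634-90213663, minus strand: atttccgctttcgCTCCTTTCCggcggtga
Rps27l, chr9:66946071-66946100, plus strand: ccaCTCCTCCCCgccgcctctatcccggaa
Rpl22, chr4:152325711-152325740, plus strand: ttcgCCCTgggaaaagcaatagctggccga
Rpl22l1, chr3:28805493-28805522, plus strand: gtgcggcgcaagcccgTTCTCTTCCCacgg
Rpl36a, chrX:134585639-134585668, plus strand: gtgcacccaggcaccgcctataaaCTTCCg
Rpl36al, chr12:69184053-69184082, minus strand: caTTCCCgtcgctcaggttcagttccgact

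The run of C and T spans the annotated start in Rps27, lies before it in Rpl37, Rpl4, Rps27l, Rpl22 and Rpl36al, and begins after it in Rpl22l1 and Rpl36a. An annotated start can lie some bases from the base where transcription begins: the GENCODE gene of Rpl37 starts at 5116645, downstream of the window shown. In windows of 25 bases on each side of the start, CTTTCC or CTTTTC on the strand of the gene was found in 14 of the 72 promoters (19.4%), against 4.13% of 32851 promoters of all genes. On the other strand they were found in 3 (4.17%), against 3.76% of all promoters. A run of at least 8 C or T bases was found in 33 of the 72 (45.8%), against 19.7% of all promoters.

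**Figure D2:**
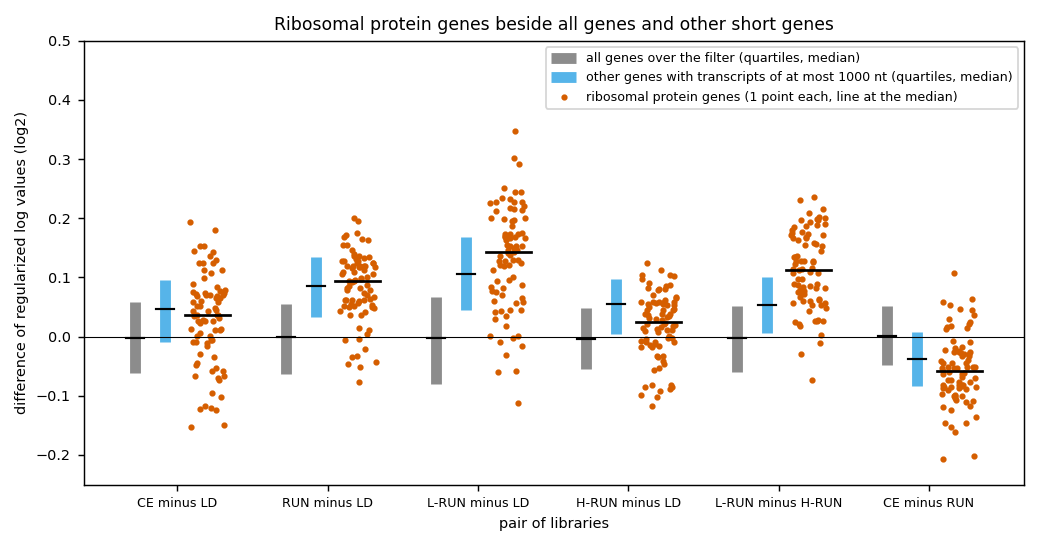
Differences of regularized log values (log2, vertical axis) for the 6 pairs of libraries: the 82 ribosomal protein genes as points with a line at their median, beside the quartiles (bar) and median (line) of all 13550 genes over the filter and of 623 other genes with principal transcripts of at most 1000 nt. The ribosomal protein median lies highest in L-RUN minus LD (0.14, against 0.11 in the other short genes) and is 0.025 in H-RUN minus LD (0.054 in the other short genes).

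High runners showed little of this. In H-RUN minus LD, 54 genes were higher and 28 lower, against 6504 of all 13550 genes and 482 of 623 other short genes higher. The family had a median of 0.025 (quartiles -0.012 and 0.058) and a range from -0.12 to 0.12. Against LD and CE averaged, the median was 0.0058. At 0.3, 0 genes passed (0.827% of all genes did). Only 5 were higher by at least 0.1, which is 6.10% against 9.45% of all genes, and 2 were lower by at least 0.1, which is 2.44% against 11.6%. Among the highest were Rpl36 (0.11), Rps28 (0.11), Rpl28 (0.10) and Rpl37 (0.10). The lowest were Rps24 (-0.12), Rps4y2 (-0.10), Rps4x (-0.099), Rps15a (-0.091) and Rpl9 (-0.089). For Rps24 the value was 13.17 in LD, 13.06 in H-RUN, 13.12 in CE, 13.17 in RUN and 13.14 in L-RUN, so H-RUN lay apart below the others. The large subunit had a median of 0.032 and the small subunit a median of -0.0025.

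Set directly against each other, L-RUN was above H-RUN for 79 of the 82 genes (96.3%, against 48.6% of all genes), with a median difference of 0.11 (quartiles 0.064 and 0.17). By at least 0.1, 45 genes were higher in L-RUN (54.9%, against 10.8% of all genes) and 0 were lower. Rpl36 (0.24), Rps4y2 (0.23), Rpl21 (0.22), Rpl35 (0.21) and Rps16 (0.20) had the largest differences. Rpl21 had 13.28 in LD, 13.26 in H-RUN, 13.30 in CE, 13.39 in RUN and 13.47 in L-RUN, with LD and H-RUN lowest and RUN between the 2 running extremes. The genes not higher in L-RUN were Rps27 (-0.074), Rpl4 (-0.029) and Rpl3 (-0.011), and Rpl12 (0.019) was among those just above 0. Of these 4 only Rps27 exceeded the technical SD. Rpl3, which sits near the catalytic centre of the large subunit, was nearly flat, with 14.06 in LD, 14.08 in H-RUN, 14.04 in CE, 14.11 in RUN and 14.07 in L-RUN. The L-RUN and H-RUN pools each stand for 4 animals. The L-RUN meningeal marker level exceeded that of H-RUN for 18 of 18 markers, of a list chosen with earlier results of these data known.

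RUN minus LD lay between the values of L-RUN and H-RUN, as a pool of the same mice would. Here 73 genes were higher and 9 lower, against 6684 of all 13550 genes and 533 of 623 other short genes higher. The family had a median of 0.094 (quartiles 0.053 and 0.12). At 0.3, 0 genes passed (1.31% of all genes did). By at least 0.1, 37 genes were higher (45.1%), against 12% of all genes, 41.6% of other short genes and 62.3% of oxidative phosphorylation genes. None was lower by that much, against 15.3% of all genes and 1.61% of other short genes. At this size the family was thus close to other short genes. Among the highest were Rpl36 (0.20), Rps18 (0.20), Rpl37 (0.18) and Rps28 (0.17). The lowest were Rpl22 (-0.076), Rpl4 (-0.052), Rps27 (-0.046), Rps4x (-0.043) and Rps2 (-0.034).

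In the complex environment without running the family was spread to both sides. In CE minus LD, 57 genes were higher and 25 lower, against 6663 of all 13550 genes and 443 of 623 other short genes higher. The family had a median of 0.036 (quartiles -0.011 and 0.074), or 0.056 after quantile normalization. At 0.3, 0 genes passed (0.598% of all genes did). By at least 0.1, 14 genes were higher (17.1%, against 12.8% of all genes) and 7 were lower (8.54%, against 14% of all genes). Rpl28 was highest, with 12.08 in LD, 12.18 in H-RUN, 12.27 in CE, 12.24 in RUN and 12.31 in L-RUN, a difference of 0.19 in CE. Rpl36 (0.18), Rps15 (0.15) and Rpl18 (0.14) were also among the highest. The lowest were Rps4x (-0.15), Rps27a (-0.15), Rpl22l1 (-0.12), Rpl4 (-0.12) and Rpl22 (-0.12). Rps4x, the X-linked copy of a protein of the small subunit, had 12.95 in LD, 12.85 in H-RUN, 12.79 in CE, 12.90 in RUN and 12.97 in L-RUN, so CE was the lowest library.

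CE and RUN can also be compared without LD. CE was below RUN for 68 of the 82 genes (82.9%, against 49.6% of all genes), with a median of -0.059 (quartiles -0.088 and -0.026). Of the 623 other short genes, 442 were below RUN, with a median of -0.038. By at least 0.1, 17 genes of the family were lower in CE (20.7%), against 8.65% of all genes, 17.5% of other short genes and 19.5% of oxidative phosphorylation genes. Only 1, Rps2, was higher by that much, by 0.11. After the length curve described below, the median was -0.036, and 9 of the 82 genes were lower by at least 0.1, against 1205 of 13452 genes. The order of the medians against LD was thus L-RUN, RUN, CE and H-RUN, and the gap between CE (0.036) and H-RUN (0.025) was smaller than the technical SD of a single gene's difference.

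Ribosomal protein mRNAs are short, and in these libraries short transcripts were high wherever the ribosomal protein genes were high. The longest annotated transcript had a median of 1100 nt for the 82 genes (range 383 to 5179) and of 3517 nt for all genes with a length. Among all other genes, the median of L-RUN minus LD went from 0.11 for transcripts up to 1000 nt (421 genes) through 0.068 up to 2000 nt, 0.012 up to 4000 nt and -0.056 up to 8000 nt to -0.14 above 8000 nt (862 genes). In H-RUN minus LD the same medians went from 0.060 to -0.064. The 623 other genes with a principal transcript of at most 1000 nt had medians of 0.046 in CE, 0.054 in H-RUN, 0.085 in RUN and 0.11 in L-RUN, against 0.036, 0.025, 0.094 and 0.14 for the ribosomal protein genes. The ribosomal protein genes were thus higher than other short genes in L-RUN and lower than them in H-RUN.

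To set each gene against this trend, a smooth curve of the difference on transcript length was fitted to the genes outside the family, and the value of the curve at the gene's length was subtracted. After this the median was 0.057 in L-RUN minus LD, with 61 of 82 genes above the curve (74.4%, against 49.8% of all genes). In RUN minus LD the median was 0.026, with 6 genes higher by at least 0.1 (7.32%, against 9.95% of all genes) and 5 lower (6.10%, against 10.4%), both shares below those of all genes. In CE minus LD it was 0.00029, with 6 higher (7.32%, against 12.4%) and 10 lower (12.2%, against 11.4%). In H-RUN minus LD it was -0.015, with 0 higher (8.92% of all genes were) and 7 lower (8.54%, against 8.78%). The shares of lower genes in CE and H-RUN were thus close to those of all genes. No gene kept a difference of 0.3. Between L-RUN and H-RUN the length-adjusted median was 0.074, with 70 of 82 genes above the curve (85.4%, against 50.3% of all genes), 31 higher by at least 0.1 (37.8%, against 10.8%) and 1 lower (1.22%, against 11.2%).

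How much of the difference follows length depended on the length used. With the median transcript length of each gene the adjusted median was 0.12 in L-RUN, 0.070 in RUN and 0.012 in H-RUN, and with coding length it was 0.075, 0.049 and -0.0014. With the principal transcript length it was lower, at 0.044, 0.016 and -0.023. The sign in H-RUN thus changed with the length used. The median between L-RUN and H-RUN stayed between 0.067 and 0.12 over all the lengths and covariates tried. Rpl37 (0.20), Rpl36 (0.19) and Rps16 (0.16) stayed above the curve in L-RUN, and Rpl4 (-0.18), Rps27a (-0.16) and Rps2 (-0.15) lay below it. Whether the length trend arose in the cells or in the libraries was not tested.

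**Figure D3:**
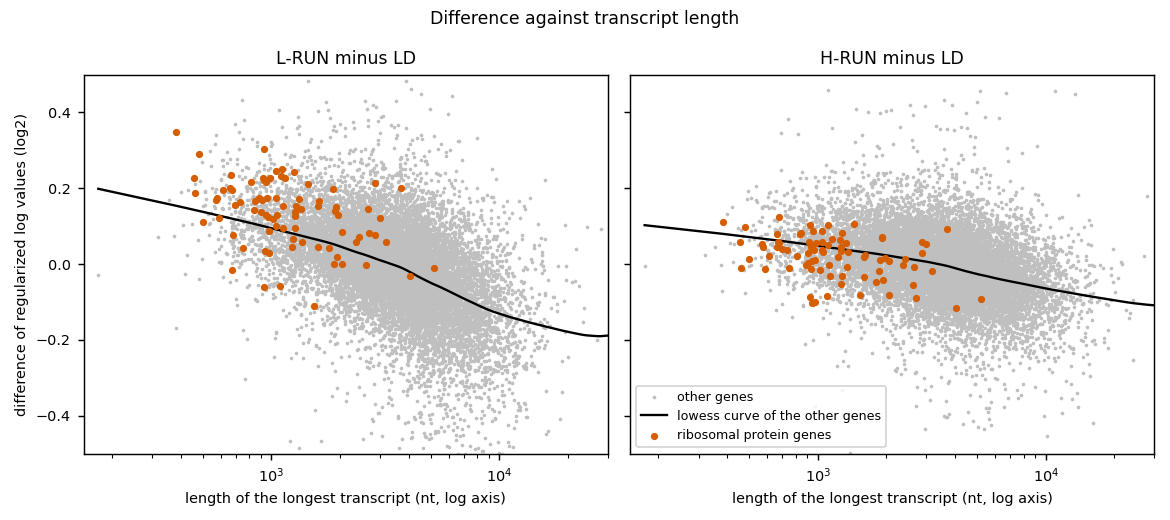
Difference of regularized log values (log2, vertical axis, drawn from -0.5 to 0.5, so that points beyond are not shown) against the length of the longest transcript (nt, log axis) for L-RUN minus LD (left) and H-RUN minus LD (right); grey points are other genes, the line is the lowess curve through them, and orange points are the 82 ribosomal protein genes. In L-RUN 61 of the 82 genes lie above the curve, and in H-RUN 26 do.

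Length also went with the differences within the family, though loosely. Across 81 genes with a coding length (median 453 nt), L-RUN minus LD correlated with the log10 of coding length at Pearson's r -0.43 and Spearman's rho -0.41. These are correlations across genes of the same libraries, which are not independent, and across 13003 other genes they were -0.34 and -0.36. In L-RUN minus LD the median was 0.16 for the 28 genes with coding lengths under 400 nt, 0.16 for the 30 from 400 to under 600 nt and 0.086 for the 23 of 600 nt or more. In H-RUN minus LD the same medians were 0.033, 0.047 and 0.011. Rpl36, Rpl37 and Rps21, the 3 highest genes in L-RUN, have coding lengths of 315, 291 and 249 nt, and Rpl4, the lowest, has the longest, 1257 nt. Rpl3, with 1209 nt, differed by 0.00049 in L-RUN. Not all genes with short coding sequences were high: Rps27 (252 nt) had -0.016 and Rps24 (399 nt) -0.031. Rpl41, the shortest at 75 nt, had 0.15, near the family median of 0.14.

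**Figure D4:**
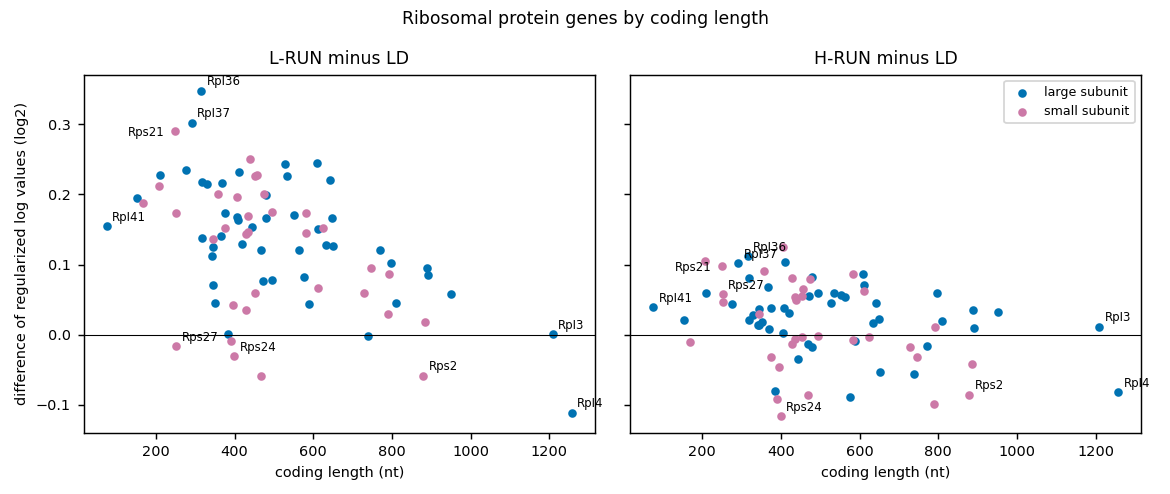
Difference of regularized log values (log2, vertical axis) against coding length (nt) for the ribosomal protein genes with a coding length, in L-RUN minus LD (left) and H-RUN minus LD (right), by subunit; each point is 1 gene. The genes of under 400 nt have a median of 0.16 in L-RUN and those of 600 nt or more 0.086, with Rpl36 (315 nt) at the top and Rpl4 (1257 nt) at the bottom.

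GC content went with the CE values. Across the 82 genes, CE minus LD correlated with the GC percentage of the principal transcript at Pearson's r 0.47 and Spearman's rho 0.48, and across 13370 other genes at 0.55 and 0.58. For L-RUN minus LD the 82 genes gave 0.19 and 0.16.

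The paralogs did not follow a common rule. Rpl22 had 11.69 in LD, 11.61 in H-RUN, 11.57 in CE, 11.61 in RUN and 11.69 in L-RUN, and its paralog Rpl22l1 had 10.53, 10.60, 10.40, 10.61 and 10.67. Both were lower in CE, while in the running libraries Rpl22l1 was higher than LD by 0.082, 0.14 and 0.068 (RUN, L-RUN and H-RUN) and Rpl22 was not, at -0.076, 0.0011 and -0.081. Rpl22 is known to keep Rpl22l1 low by acting on its mRNA.

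Rpl36a and Rpl36al, which encode nearly the same protein, were both higher in L-RUN, by 0.22 and 0.14. Rpl7 and Rpl7l1 were nearly flat in L-RUN, at 0.045 and -0.0017. Rps27l, known as a target of p53, had 7.996 in LD, 8.04 in H-RUN, 7.99 in CE, 8.06 in RUN and 8.17 in L-RUN, a difference of 0.17 in L-RUN.

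Rps4y2, which the annotation holds as a transcribed pseudogene under the symbol Rps4l, had 7.76 in LD, 7.66 in H-RUN, 7.89 in CE, 7.82 in RUN and 7.89 in L-RUN, against which the parent Rps4x differed by 0.029 in L-RUN and -0.099 in H-RUN. Reads that fit both a gene and a near copy can be split or lost in counting, so these values are uncertain. Rps19bp1, which is no ribosomal protein, had 8.78, 8.86, 8.85, 8.90 and 8.92 in the order of the libraries above, with 0.14 in L-RUN. Of the remaining paralogs, Rpl3l, Rpl10l and Rpl39l were under the filter. Their parents Rpl3, Rpl10 and Rpl39 had 0.00049, 0.22 and 0.19 in L-RUN minus LD.

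Nearly all core proteins enter the ribosome in equal numbers, but 4 of the 77 core genes were listed far below the others. The level per kb of principal transcript of the 73 core genes with a mean of at least 10 ran from 10.06 to 14.24 (log2, median 12.72). For the other 4, Rpl26, Rpl30, Rpl34 and Rps27, it ran from 5.06 to 7.08 (they are named for these values, after the values were seen). Rpl34 had 5.49 in LD, 5.51 in H-RUN, 5.56 in CE, 5.54 in RUN and 5.53 in L-RUN, while the pseudogene symbol Rpl34-ps1 had 8.96, 9.01, 8.97, 9.04 and 9.13. How the counting treated reads that fit more than 1 place is not given in the sources used here, and the part of near copies in these low values was not tested. The shrinkage of regularized log values is strongest for such low values, so differences of these 4 genes, Rps27 among the lowest in L-RUN included, are uncertain.

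**Figure D5:**
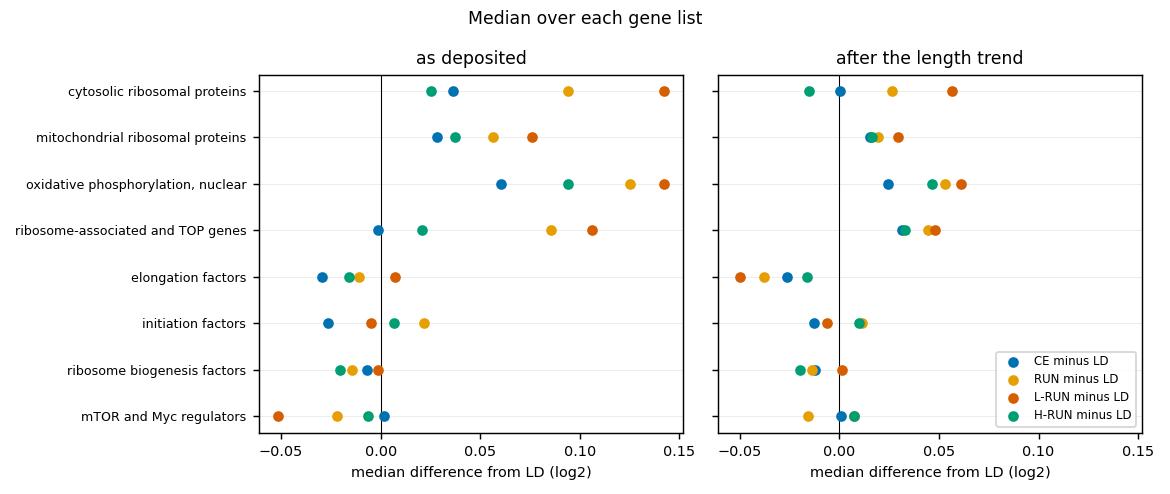
Median difference of regularized log values from LD (log2, horizontal axis) over 8 gene lists, as deposited (left) and after subtraction of the length curve (right), with 1 point per library. As deposited, the cytosolic ribosomal proteins and the nuclear oxidative phosphorylation genes share a median of 0.14 in L-RUN but have 0.025 and 0.094 in H-RUN.

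Other genes of the ribosome and of translation were taken from lists. In the list of 11 ribosome-associated and TOP genes, L-RUN minus LD had a median of 0.11, and of 0.048 after the length curve. By at least 0.1 before the length curve, 7 were higher (63.6%, against 16.3% of all genes) and 1 lower (9.09%, against 20.5%). Fau, a fusion of a ubiquitin-like protein with the small subunit protein S30, had 12.10 in LD, 12.19 in H-RUN, 12.25 in CE, 12.22 in RUN and 12.35 in L-RUN, a difference of 0.25 in L-RUN like that of Rps16. Gnb2l1, the small subunit scaffold Rack1, differed by 0.10. Tpt1, a TOP gene of abundant mRNA, had the largest difference of the list, 0.26, and Nap1l1, a histone chaperone with a TOP mRNA, the lowest, -0.11.

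The factors that work on the ribosome did not share the shift. The 10 elongation factors had a median of 0.0072 in L-RUN minus LD, from Eef1e1 (0.11) to Eif5a2 (-0.19). By at least 0.1, 2 were higher (20%, against 16.3% of all genes) and 2 lower (20%, against 20.5%). Eef1a1, whose mRNA is a TOP mRNA and which brings aminoacyl-tRNA to the ribosome, differed by 0.056, and Eef2, which moves the ribosome along, by -0.055. The 35 initiation factors over the filter had a median of -0.0049, with 5 higher (14.3%) and 6 lower (17.1%) by at least 0.1, from Eif3e (0.17) to Eif1ax (-0.28). The 39 factors of ribosome biogenesis had a median of -0.0015, with 5 higher (12.8%) and 4 lower (10.3%), from Polr1d (0.22) to Tsr1 (-0.19). The 24 regulators of the mTOR and Myc pathways had a median of -0.051, with 3 higher (12.5%) and 6 lower (25%), from Akt1s1 (0.18) to Eif4ebp2 (-0.38). After the length curve the medians were -0.050, -0.0060, 0.0014 and 0.0073 in the order of these lists.

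The 76 mitochondrial ribosomal protein genes, which form the separate ribosome of mitochondria, had medians of 0.028 in CE, 0.038 in H-RUN, 0.057 in RUN and 0.076 in L-RUN. By at least 0.1, 28 were higher (36.8%, against 16.3% of all genes) and 1 lower (1.32%, against 20.5%) in L-RUN, from Mrpl52 (0.23) to Mrps23 (-0.11). The 77 nuclear genes of oxidative phosphorylation, also short, matched the cytosolic ribosomal protein genes in L-RUN with a median of 0.14, from Cox7b (0.32) to Ndufs1 (-0.11). In H-RUN they did not: 36 of the 77 (46.8%) were higher than LD by at least 0.1, against 5 of the 82 ribosomal protein genes (6.10%). That size was reached by 24.6% of the other short genes and 9.45% of all genes. Between L-RUN and H-RUN the median was 0.044 for oxidative phosphorylation, 0.040 for mitochondrial ribosomal proteins and 0.11 for cytosolic ribosomal proteins, and after the length curve -0.0014, 0.017 and 0.074.

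Markers of other cells were also set beside the family. Between L-RUN and LD the median difference was 0.49 for the 18 leptomeningeal markers, 0.13 for 8 markers of immature neurons, -0.049 for 10 of microglia, -0.066 for 9 of endothelial cells, -0.11 for 8 of astrocytes, -0.16 for 9 of oligodendrocytes, -0.041 for 8 of granule neurons and -0.33 for 9 of pyramidal neurons. Only 3 of 10 choroid plexus markers were over the filter, with a median of -0.044, and 0 of the 4 markers of red blood cells in the files. The ribosomal protein and leptomeningeal medians took the same order in RUN, L-RUN and CE against LD. The leptomeningeal medians were 0.23, 0.49 and 0.086. Both were within 0.03 of LD in H-RUN (-0.019 for the leptomeningeal markers). The order was not particular to them. Other short genes had 0.085, 0.11 and 0.046, oxidative phosphorylation genes 0.13, 0.14 and 0.061, and immature neuron markers 0.074, 0.13 and -0.032. In H-RUN these had 0.054, 0.094 and 0.072. Granule neuron and microglia markers took the order too, with medians below 0. These were -0.077, -0.041 and -0.13 (RUN, L-RUN and CE) for granule neurons, and -0.088, -0.049 and -0.090 for microglia. Markers of choroid plexus, pyramidal neurons, astrocytes, oligodendrocytes and endothelial cells did not take that order. What the order rests on was not tested.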

How the data were processed

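RNA of the DG was sequenced as 1 library of pooled RNA per group. Per the labels and the study's methods, the authors mapped reads to mm10 with TopHat2 2.0.10 (base calling with CASAVA 1.8.2), counted reads on RefSeq genes with HTSeq, and normalized all 5 libraries together with DESeq2 1.10.1. The deposited values are regularized log values on the log2 scale, 1 per gene symbol. Counts and depth are unknown here, so no counting error can be given and no count model was fitted.

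Differences between libraries were taken per gene and summarised over genes with a mean of at least 5. Transcript and coding lengths and GC content came from GENCODE vM21 (GRCm38), matched by symbol, with a lowess curve (fraction 0.3) on log10 length. Start sites came from RefSeq. Python 3.11.15, pandas 2.3.3, numpy 2.4.6, scipy 1.17.1 and statsmodels 0.14.6 were used, and the scripts were tested on simulated data. Alternatives were other cut-offs, filters, scalings, baselines, lengths and covariates. Of these, principal transcript length, coding length and expression level were added after seeing the data.

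The genes and lists were chosen with earlier results of these data known. Named genes were those past 0.3, the 5 highest and lowest per comparison with LD and in L-RUN minus H-RUN, Rpsa, the P proteins, Rps6, and paralogs with their parents. From the other lists, the highest and lowest in L-RUN minus LD were named, with Fau, Gnb2l1, Eef1a1, Eef2 and Tpt1. Some genes that this rule names are not reported here by name, but stay in the counts and medians.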

Additional observations from a re-analysis of the deposited data

Results flagged for a closer look

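Rpl9 and Rps4y2 were picked out because L-RUN and H-RUN differed from LD in opposite directions, each by at least 2 technical SDs. Rpl9, a protein of the large subunit, had 13.19 in LD, 13.10 in H-RUN, 13.07 in CE, 13.16 in RUN and 13.27 in L-RUN, which is 0.082 in L-RUN minus LD and -0.089 in H-RUN minus LD. Rps4y2 had 0.13 and -0.10. The difference between the libraries was not tested for either gene, since each is 1 pool.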

How the results depend on the processing

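No paired analysis was possible because each group is 1 library and no test was run. Over the alternatives, 113 of the values moved by less than the technical SD of 0.034 or stayed within 1.5 times of the reported count. Another 19 moved by more. The sign changed in 4, all length-adjusted medians near 0: in H-RUN from -0.015 to 0.012 with the median transcript length and to 0.028 with GC content in place of length, and in CE from 0.00029 to -0.0013 with a lowess fraction of 0.6 and to -0.013 with GC content after length. The medians of the unadjusted differences kept their sign, but in H-RUN the median went from 0.025 to 0.0058 against LD and CE averaged, and in CE from 0.036 to 0.056 with quantile normalization. Removal of the length trend changed the counts at 0.1 most: higher genes went from 14 to 6 in CE, from 37 to 6 in RUN, from 54 to 21 in L-RUN and from 5 to 0 in H-RUN, and lower genes from 0 to 5 in RUN, from 1 to 4 in L-RUN and from 2 to 7 in H-RUN. It also took the 2 genes past 0.3 in L-RUN to 0. At a cut-off of 0.2, 19 genes passed in L-RUN and 1 in RUN, and at 0.4, 0 passed in L-RUN. Quantile normalization left 0 genes lower by 0.1 in L-RUN, and centring on the median of all genes left 1 in H-RUN. The length-adjusted median went from 0.026 to 0.070 in RUN and from 0.057 to 0.12 in L-RUN with the median transcript length. With GC content in place of length it was 0.089 in RUN, 0.14 in L-RUN and 0.12 in L-RUN minus H-RUN. Apart from changes made by another cut-off or another covariate, the cause was not tested. Depth is unknown, and the technical SD holds no variation between mice.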

Other observations

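Of 6 pseudogene symbols of the family in the files, which the choice by symbol left out, Rpl34-ps1 had the highest mean, 9.02, and its L-RUN minus LD of 0.17 was larger than the 0.046 of Rpl34 itself.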
